A study of Mus musculus with 9 samples.

Results

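Nucleotide excision repair cuts a short damaged stretch out of a DNA strand and fills the gap from the intact strand. Damage is found either anywhere in the genome, by Xpc and the Ddb1-Ddb2 complex, or by a stalled RNA polymerase, and both routes then use the same helicases, nucleases, polymerases and ligases. The genes described here are the 35 factors of this pathway that act beside or after the Xpc complex. They were chosen by gene symbol among the non-control probes of the arrays and not by a cut on their values, but with earlier results of these data known. They make up 35 of the 19913 genes tested. They had 49 probes, of which 46 passed the filter on dim probes, and 12 of the genes had more than 1 probe. All 35 were measured, 34 of them above background on all 9 arrays.

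RNA came from mouse embryonic stem cells of an Xpc f/f line, in which Cre removes the sequence of Xpc between loxP sites. The null group (Xpc_KO) carries the deletion constitutively, the induced group (Xpc_f/f+Tx_day4) was taken 4 days after deletion was induced with the agent the labels call Tx, and the floxed group (Xpc_f/f-Tx) was not treated with it. Each group had 3 one-colour Agilent arrays. The labels do not say what drives Cre, whether the null cells are 1 clone, or whether the 3 samples of a group came from separate cultures, so p-values measure the spread between these samples, which may be technical. The labels name no treatment that damages DNA. According to its title, the study concerns Xpc and the transcriptional activity of Oct3/4.

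Levels are log2 of the background-subtracted signal minus log2 of the same array's 75th percentile, so that 0 is the 75th percentile of the array and 1 unit is a doubling. Each probe has its own brightness, so a level is read against that of the same probe on other arrays, and a sum over marker genes is weighted toward its brightest probes. Differences between groups are differences of mean log2 levels from 1 limma fit of the 3 group means, with p-values adjusted by the Benjamini-Hochberg method over all 19913 genes and a threshold of 0.05. Each gene is represented by its brightest probe.

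The arrays had between 47.4% and 57.9% of their spots well above background and 0 saturated spots. Floxed arrays 1 and 2 were on slide 1, null array 3 and floxed array 3 on slide 2, and null arrays 1 and 2 and all induced arrays on slide 3, with 1 scan per slide. No slide held both induced and floxed arrays, so a fit with slide as a block compares those groups only through the null arrays that share a slide with each. Floxed array 3 stood apart from its own group: across all genes it correlated at 0.993 with null array 3 and at 0.986 with both of the other floxed arrays, which correlated at 0.996 with each other. The main results that rest on it are given with and without it. Without it, the floxed arrays left share no slide with another group, so group and slide cannot be told apart in comparisons with floxed cells. All 9 embryonic stem cell markers (Pou5f1, Sox2, Nanog and others) were above background on every array. Xpc itself had levels of -0.85, -1.53 and -1.37 on the null arrays, -1.11, -0.68 and -1.05 on the induced arrays and 0.59, 0.55 and 0.16 on the floxed arrays. It fell by 1.68 in null cells relative to floxed cells (limma adjusted p = 0.00584, or 0.179 with slide as a block), while in induced cells the difference was -1.38 (adjusted p = 0.224, or -1.51 and 0.0319 without floxed array 3, the lowest of a range up to 0.954 over all alternatives). Whether its probe lies in the deleted part was not examined here.

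Probes of 3 genes that the results below turn on are shown with the strand of mm9 they match. Xpa binds the damaged strand next to TFIIH and RPA and helps to position the nucleases, Ercc1 is the partner subunit of the Ercc4 nuclease, and Rfc4 is a subunit of the clamp loader that places Pcna on DNA. The Xpa probes match chr4:46188146-46188205 and chr4:46197239-46197298 (minus strand), the Ercc1 probe chr7:19935530-19935589 (plus strand) and the dimmer of the Rfc4 probes chr16:23120982-23121041 (minus strand). The brighter Rfc4 probe, from which the Rfc4 levels and tests come, matches chr16:23114024-23114083 (minus strand) and is not printed. Exons of that build were not used here. In the printed Rfc4 probe, capitals mark the codons of the nucleotide-binding (Walker A) motif of this ATPase.
Xpa, brighter probe: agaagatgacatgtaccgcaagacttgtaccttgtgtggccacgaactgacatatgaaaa
Xpa, other probe: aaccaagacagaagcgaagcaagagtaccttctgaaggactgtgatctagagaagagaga
Ercc1: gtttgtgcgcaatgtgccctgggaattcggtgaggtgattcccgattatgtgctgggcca
Rfc4, dimmer probe: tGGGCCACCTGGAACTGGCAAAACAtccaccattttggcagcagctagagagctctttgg

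In the fit of all 9 arrays, none of the 35 repair factors passed the test in any of the 3 comparisons. Xpa between null and induced cells came nearest (limma adjusted p = 0.0504), and it passed there under 9 of 21 alternatives. The shares of all genes that passed were 1.85% for null against floxed cells, 0.00502% for induced against floxed cells and 2.2% for null against induced cells. At an unadjusted p under 0.05, limma gave 7 of the 35 between null and floxed cells (Cul4a, Xpa and Rfc4 lower and Ccnh, Pcna, Rfc1 and Lig3 higher), where 22.8% of all genes reached it, 11.1% lower and 11.7% higher. It gave 0 between induced and floxed cells (5.91% of all genes). Between null and induced cells it gave 6 (Xpa and Rfc4 lower and Rpa3, Pcna, Rfc1 and Lig3 higher), against 23.8% of all genes, 12.6% lower and 11.3% higher. The median difference of the 35 was 0.006 between null and floxed cells, -0.025 between induced and floxed cells and 0.007 between null and induced cells, against 0.012, -0.001 and 0.021 over all genes.

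The intervals show the precision of this fit, which takes no account of slide. For induced and floxed cells, which share no slide, they do not bound how large a change could have gone unseen. Between induced and floxed cells, the 95% interval lay within 1 log2 unit of 0 for all 35 factors and within 0.5 for 31 of them, against 92.1% and 59.4% of all genes. Between null and floxed cells these counts were 33 and 23 (87% and 45.1% of all genes), and between null and induced cells 33 and 21 (85.9% and 44.9%). The 2 factors outside the wider bound were Xpa and Ercc6 in both comparisons with null cells. Only Xpa differed by more than 0.5 in mean, between null and floxed and between null and induced cells, where 12.5% and 13.7% of all genes did. Between induced and floxed cells 0 of the 35 did, against 4.58% of all genes. With slide as a block, 3 of them did in that comparison, Gtf2h3 (-0.72, adjusted p = 0.0822), Xpa (0.66, adjusted p = 0.132) and Ercc4 (-0.54, adjusted p = 0.191), against 20.7% of all genes.

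**Figure D1:**
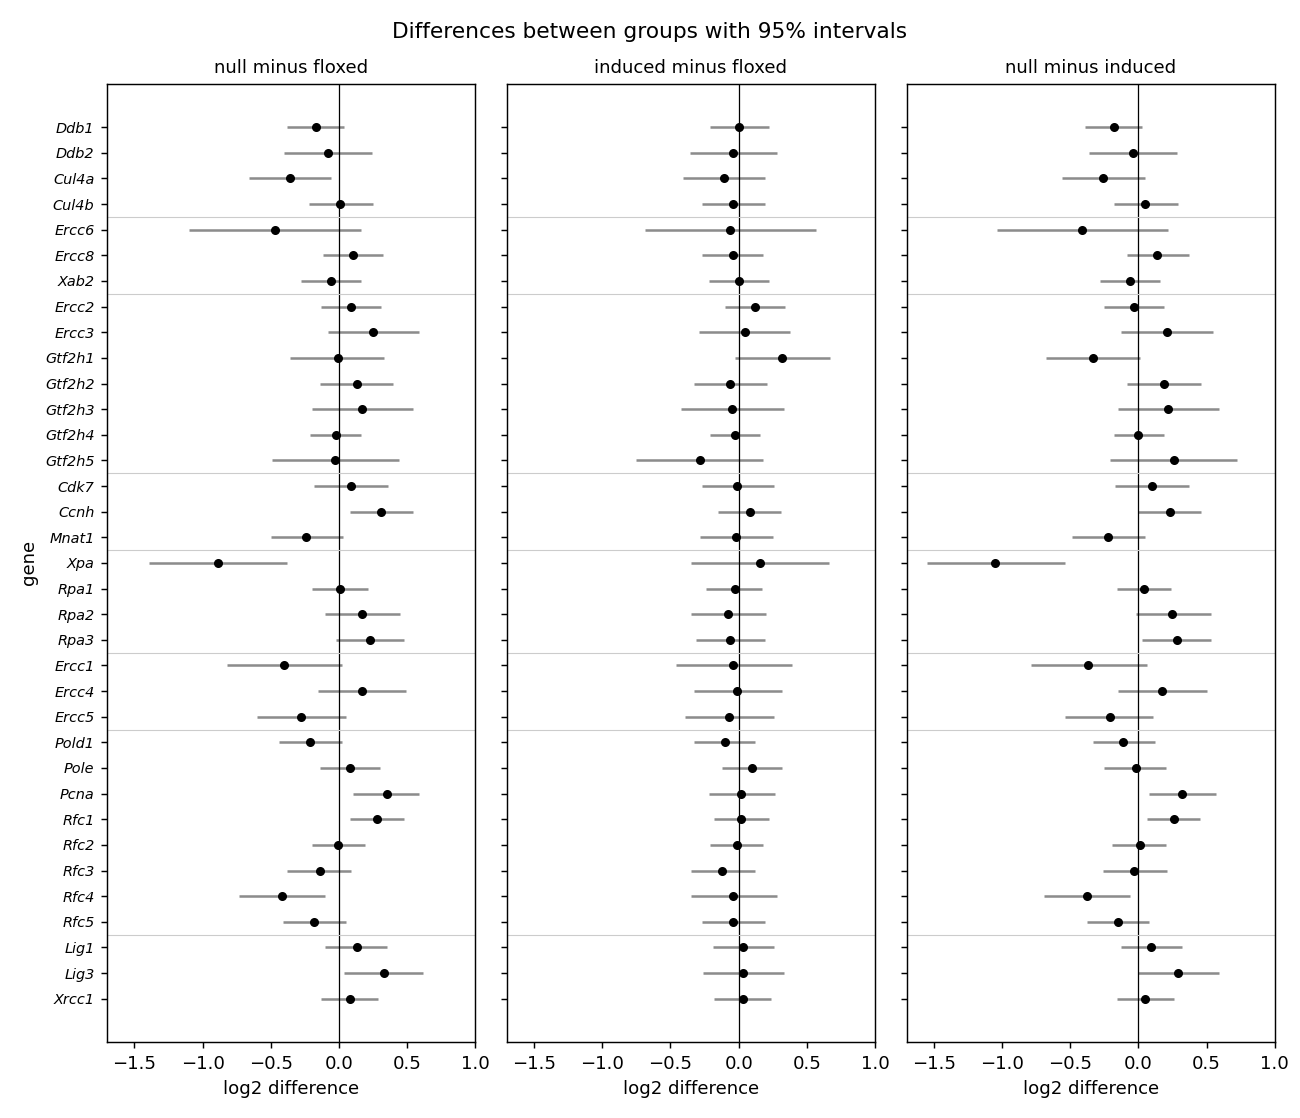
Log2 differences between group means (points) with 95% intervals from the limma fit (lines) for the 35 repair factors, in order of their role, for null minus floxed, induced minus floxed and null minus induced cells. Most intervals cross 0, and Xpa lies farthest to the left in both comparisons with null cells, at -0.89 and -1.05.

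Xpa was the factor with the widest gap between groups. Its level was 2.03, 2.13 and 1.98 on the null arrays, 3.22, 3.03 and 3.03 on the induced arrays and 3.23, 3.24 and 2.33 on the floxed arrays. All null arrays lay below all arrays of both other groups, and floxed array 3 lay between the null arrays and the rest. The means were 2.05 ± 0.077 in null cells, 3.09 ± 0.11 in induced cells and 2.93 ± 0.52 in floxed cells (SD, n = 3 each). Null cells had 54% of the floxed signal (log2 difference -0.89, SE 0.22, 95% interval -1.39 to -0.38, limma adjusted p = 0.0819). They had 48.5% of the induced signal (-1.05, SE 0.22, interval -1.55 to -0.54, adjusted p = 0.0504). Induced cells differed from floxed cells by 0.16 (adjusted p = 0.977), or by 0.66 (adjusted p = 0.132) with slide as a block. In bulk RNA, fewer cells with the transcript and less transcript per cell cannot be told apart.

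The other Xpa probe, which reads a separate stretch of the transcript, ordered the arrays in the same way. Its levels were 0.22, 0.35 and 0.07 on the null arrays, 1.21, 1.08 and 1.12 on the induced arrays and 1.29, 1.36 and 0.37 on the floxed arrays. The null arrays were again the lowest 3, with floxed array 3 next. The differences were -0.79 between null and floxed cells, 0.13 between induced and floxed cells and -0.92 between null and induced cells. Both probes come from the same RNA and are no replicates of each other.

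The Xpa values were also taken within slides. On slide 3, null arrays 1 and 2 were below the induced arrays by 1.01 on average (difference -1.01, SE 0.11, limma adjusted p = 0.00569, where 12.4% of all genes passed). On slide 2, null array 3 was below floxed array 3 by a smaller step (-0.35, no test with 1 array a group). A fit with slide as a block gave that same -0.35 between null and floxed cells (adjusted p = 0.477), because floxed arrays 1 and 2 share no slide with another group. Without floxed array 3, Xpa passed between null and floxed cells (-1.19, adjusted p = 0.000243) and between null and induced cells (adjusted p = 0.00048), and its difference between induced and floxed cells was -0.14 (adjusted p = 0.627). Over all alternatives, its adjusted p ran from 0.000243 to 0.477 between null and floxed cells and from 0.00048 to 0.174 between null and induced cells, with a negative difference in each.

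Markers of other cell types were also examined, and their part in the Xpa values was not tested. Summed signals of fibroblast and trophectoderm markers were lowest on the null arrays. Those of blood and endothelium markers and of primitive endoderm markers overlapped between null and floxed arrays. The summed signal of 9 fibroblast markers, in multiples of the array's 75th percentile, was 8.46 to 10.3 on the null arrays, 17.6 to 24.3 on the induced arrays and 27.2 to 30.8 on the floxed arrays. Tagln made up 64.7% to 89.3% of that sum, and Lum and Pdgfrb were above background on no array. Of the 6 fibroblast markers tested, 5 fell between null and floxed cells, while Thy1 had a difference of 1.37 (adjusted p = 0.104). Thy1 rose without floxed array 3 (1.92, limma adjusted p = 0.000142), while the other 5 fell. The sum of 8 trophectoderm markers was 22.5 to 26.7, 48.6 to 69.7 and 67.7 to 89.9 on the null, induced and floxed arrays, with Krt18 holding 65.4% to 74.1% of it and Elf5 above background on none. Of the 7 tested, 6 fell, and Eomes had a difference of 0.45 (adjusted p = 0.404). Eomes rose without floxed array 3 (0.87, limma adjusted p = 0.00391), while the other 6 fell. On floxed array 3, where Xpa was low, the fibroblast and trophectoderm sums were 27.2 and 67.7, both the lowest of the floxed arrays. On floxed arrays 1 and 2 they were 30.3 to 30.8 and 89.5 to 89.9. The sum of the stem cell markers was 333 to 371 on the null arrays, 391 to 433 on the induced arrays and 301 to 449 on the floxed arrays, the lowest value being that of floxed array 3. Of these 9 markers, none passed between null and floxed cells, with 3 above 0 and 6 below. Without floxed array 3, 1 rose and 5 fell. Between null and induced cells 3 were above 0 and 6 below, and Utf1 alone passed (0.59, limma adjusted p = 0.0322). The sum of 8 blood and endothelium markers was 20.5 to 36.8, 19.8 to 28.1 and 21.6 to 36.6 on the null, induced and floxed arrays, with Kdr holding 85% to 93% of it, Cdh5 above background on none and the highest floxed value again on floxed array 3. Of the 6 tested, none passed between null and floxed cells, with 4 above 0 (Tal1 1.18 and Cd34 1.15 being the largest) and 2 below (Kdr -0.14 and Pecam1 -0.38). Without floxed array 3, 4 rose and 1 fell. Of 8 primitive endoderm markers, 6 (Gata6, Sox17, Sox7, Foxa2, Pdgfra and Afp) were above background on no array, and the sum of the 8 was 0.307 to 0.38 on the null, 0.344 to 0.407 on the induced and 0.322 to 0.403 on the floxed arrays.

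**Figure D2:**
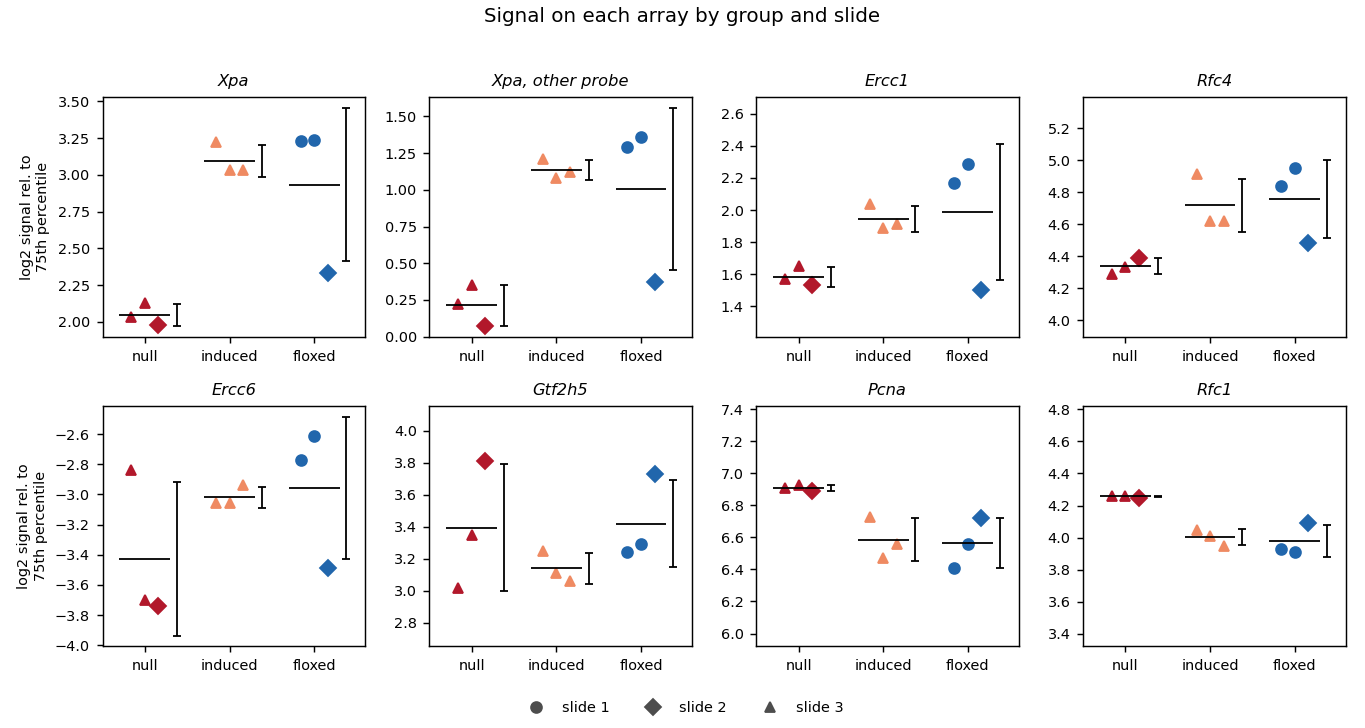
Level (log2 signal relative to the array's 75th percentile) on each of the 9 arrays for both Xpa probes, Ercc1, Rfc4, Ercc6, Gtf2h5, Pcna and Rfc1, with null left of induced and floxed cells. Marker shape gives the slide, horizontal lines are group means and vertical bars are 1 SD on either side (n = 3). Floxed array 3, the floxed diamond, lies apart from the other floxed arrays in most panels.

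Damage recognition in chromatin uses Ddb1 and Ddb2, which bind ultraviolet lesions, and the Cul4a and Cul4b scaffolds, which turn Ddb1 into a ubiquitin ligase. Ddb1 had levels of 7.21, 7.38 and 7.14 on the null arrays, 7.45, 7.38 and 7.44 on the induced arrays and 7.38, 7.47 and 7.4 on the floxed arrays. The null and floxed arrays of Ddb1 did not overlap, but only before rounding, since null array 2 and floxed array 1 both read 7.38. The difference was small (-0.17, adjusted p = 0.294). Ddb2 is a p53 target in human cells. Its levels were -0.63, -0.44 and -0.77 on the null arrays, -0.59, -0.43 and -0.69 on the induced arrays and -0.42, -0.38 and -0.79 on the floxed arrays, and all 3 groups overlapped. Cul4a had 1.94, 1.76 and 1.64 on the null arrays, 2.16, 1.95 and 2 on the induced arrays and 2.22, 2.3 and 1.91 on the floxed arrays. Its brighter probe was lower in null than in floxed cells (-0.36, adjusted p = 0.159), and its other probe was not (0.03), so its probes disagree. Cul4b differed by 0.01 between null and floxed cells and by -0.04 between induced and floxed cells.

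Transcription-coupled repair starts at a stalled RNA polymerase II. Ercc6 and Ercc8, the mouse genes of the Cockayne syndrome proteins CSB and CSA, and the Xpa-binding protein Xab2 act there. The levels of Ercc6 were -2.84, -3.7 and -3.74 on the null arrays, -3.06, -3.06 and -2.94 on the induced arrays and -2.77, -2.61 and -3.49 on the floxed arrays. It was well above background on 1 of the 3 null arrays, on all 3 induced and on all 3 floxed arrays. Null array 1 lay with the induced and floxed arrays, while null arrays 2 and 3 and floxed array 3 were the lowest. The difference between null and floxed cells was -0.47 (adjusted p = 0.342), with SDs of 0.51 and 0.47 in those groups. It was -0.74 without floxed array 3 (limma adjusted p = 0.0689). Xab2 had 3.64, 3.8 and 3.58 on the null arrays, 3.78, 3.71 and 3.71 on the induced arrays and 3.76, 3.82 and 3.62 on the floxed arrays, with overlap throughout. Ercc8 differed by 0.1 between null and floxed cells and by -0.04 between induced and floxed cells.

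TFIIH opens the DNA around the lesion and also serves in transcription by RNA polymerase II. Its core holds the helicases Ercc2 (XPD) and Ercc3 (XPB) and the subunits Gtf2h1 to Gtf2h5, 7 genes in all. Their median difference was 0.092 between null and floxed cells and -0.025 between induced and floxed cells, and none of the 7 passed. Gtf2h4 had 4.07, 4.17 and 4.11 on the null arrays, 4.11, 4.11 and 4.13 on the induced arrays and 4.18, 4.16 and 4.08 on the floxed arrays, and no array stood apart. Gtf2h2 had 1.05, 0.78 and 0.72 on the null arrays, 0.84, 0.57 and 0.58 on the induced arrays and 0.69, 0.7 and 0.78 on the floxed arrays, and its groups overlapped.

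The largest induced-minus-floxed difference of the 35 belonged to Gtf2h1, a TFIIH subunit that contacts Xpc in human and yeast studies. Its levels were 3.01, 3.22 and 2.95 on the null arrays, 3.34, 3.36 and 3.47 on the induced arrays and 3.36, 3.1 and 2.76 on the floxed arrays. The difference between induced and floxed cells was 0.32 (adjusted p = 0.887), or 0.16 (adjusted p = 0.666) without floxed array 3, its lowest array, and over all alternatives the adjusted p ran from 0.332 to 1. Ercc2 was the only factor whose induced and floxed arrays did not overlap, at 2.68, 2.74 and 2.73 on the induced arrays and 2.64, 2.52 and 2.63 on the floxed arrays. That difference was 0.12 (adjusted p = 0.968), and 12.9% of all genes had induced and floxed arrays without overlap.

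Gtf2h5, the small subunit that stabilises TFIIH, was highest on the arrays of slide 2. Its level was 3.81 on null array 3 and 3.73 on floxed array 3. It was 3.02 and 3.35 on the other null arrays, 3.25, 3.11 and 3.06 on the induced arrays and 3.24 and 3.29 on the other floxed arrays. Both slide 2 arrays were above the other 7 for Gtf2h5 alone among the factors, against 10.4% of all genes, and below the other 7 for Ddb2, Xab2, Gtf2h1, Ercc1 and Ercc5, against 6.71% of all genes. Gtf2h3 had 2.46, 2.43 and 1.81 on the null arrays, 1.95, 2.03 and 2.06 on the induced arrays and 2, 2.08 and 2.1 on the floxed arrays. Null arrays 1 and 2 of Gtf2h3 were the highest of all 9 and null array 3 the lowest. Within slide 3, Gtf2h3 was higher in null than in induced cells (0.43, limma adjusted p = 0.0354). With all arrays that difference was 0.22 (adjusted p = 0.445), and over all alternatives its adjusted p ran from 0.0165 to 0.743.

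The Cdk-activating kinase of TFIIH consists of Cdk7, its cyclin Ccnh and the assembly factor Mnat1. Ccnh had -0.6, -0.47 and -0.68 on the null arrays, -0.83, -0.76 and -0.85 on the induced arrays and -0.9, -1.01 and -0.76 on the floxed arrays. Every null array was above every other array, but the difference from floxed cells did not pass (0.31, adjusted p = 0.134). Mnat1 had 2.45, 2.47 and 2.27 on the null arrays, 2.79, 2.53 and 2.53 on the induced arrays and 2.75, 2.67 and 2.48 on the floxed arrays. For Mnat1, every null array was below every other array (null minus floxed -0.24, adjusted p = 0.266). Cdk7 differed by 0.09 between null and floxed cells and by -0.01 between induced and floxed cells.

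Replication protein A, made of Rpa1, Rpa2 and Rpa3, coats the undamaged strand. Rpa1 had 6.14, 6.15 and 6.15 on the null arrays, 6.24, 6.05 and 6.03 on the induced arrays and 6.1, 6.16 and 6.15 on the floxed arrays. No array of Rpa1 stood apart, and its differences were 0.01, -0.03 and 0.04 for null minus floxed, induced minus floxed and null minus induced cells. Rpa3 had 4.42, 4.48 and 4.42 on the null arrays, 4.21, 4.13 and 4.13 on the induced arrays and 4.07, 4.14 and 4.44 on the floxed arrays. Rpa2 had 3.04, 3.17 and 2.97 on the null arrays, 2.84, 2.77 and 2.82 on the induced arrays and 2.75, 2.77 and 3.14 on the floxed arrays. For both genes, floxed array 3 lay among the null arrays and the induced arrays lay below all null arrays. Between null and floxed cells the differences were 0.23 for Rpa3 (adjusted p = 0.256) and 0.17 for Rpa2 (adjusted p = 0.414).

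The incision is made by Ercc4 (XPF) with Ercc1 on one side of the lesion and by Ercc5 (XPG) on the other. Ercc1 had 1.57, 1.65 and 1.53 on the null arrays, 2.04, 1.89 and 1.91 on the induced arrays and 2.17, 2.29 and 1.5 on the floxed arrays. Floxed array 3 was the lowest of all 9 arrays, and the other 2 floxed arrays were the highest. The means were 1.58 ± 0.059 in null cells, 1.95 ± 0.082 in induced cells and 1.98 ± 0.43 in floxed cells (SD, n = 3 each), and null cells differed from floxed cells by -0.4 (adjusted p = 0.236). Ercc5 had 0.53, 0.42 and 0.22 on the null arrays, 0.64, 0.63 and 0.55 on the induced arrays and 0.81, 0.85 and 0.37 on the floxed arrays, with floxed array 3 among the null arrays (null minus floxed -0.28, adjusted p = 0.277). Ercc4 ran the other way, with 1.93, 2.03 and 1.74 on the null arrays, 1.75, 1.8 and 1.62 on the induced arrays and 1.64, 1.53 and 2.02 on the floxed arrays (null minus floxed 0.17, adjusted p = 0.502). Ercc1 and Ercc4, which form 1 nuclease, thus had differences of opposite sign, neither of which passed with all arrays. Without floxed array 3 they were -0.65 for Ercc1 (limma adjusted p = 0.00233) and 0.31 for Ercc4 (adjusted p = 0.0773).

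Gap filling uses the polymerase subunits Pold1 and Pole, the sliding clamp Pcna and the clamp loader made of Rfc1 to Rfc5, which replication uses as well. The 8 genes had differences between -0.42 and 0.35 between null and floxed cells, 3 of them above 0 and 5 below. Pcna had 6.91, 6.93 and 6.89 on the null arrays, 6.73, 6.47 and 6.56 on the induced arrays and 6.41, 6.56 and 6.72 on the floxed arrays. All null arrays were above all others (null minus floxed 0.35, adjusted p = 0.122). Rfc1, the large loader subunit, had 4.26, 4.26 and 4.25 on the null arrays, 4.05, 4.01 and 3.95 on the induced arrays and 3.93, 3.91 and 4.09 on the floxed arrays (null minus floxed 0.28, adjusted p = 0.121).

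The null-minus-floxed differences of the loader subunits had both signs, and none passed. Rfc4 had 4.29, 4.33 and 4.39 on the null arrays, 4.91, 4.62 and 4.62 on the induced arrays and 4.84, 4.95 and 4.48 on the floxed arrays, with every null array below every other. Its null-minus-floxed difference was -0.42 (adjusted p = 0.136), and its dimmer probe, shown above, gave -0.43. That probe read 2.54, 2.33 and 2.5 on the null arrays, 3, 2.74 and 2.64 on the induced arrays and 2.97, 3.07 and 2.62 on the floxed arrays. Rfc3 had 1.34, 1.38 and 1.29 on the null arrays, 1.52, 1.31 and 1.27 on the induced arrays and 1.36, 1.58 and 1.51 on the floxed arrays. Rfc2 and Rfc5 differed by -0.01 and -0.18 between null and floxed cells, Pold1 by -0.21 and Pole by 0.08. Of 12 proliferation markers none passed in any comparison with all arrays, with median differences of 0.031, 0.049 and 0.026 for null minus floxed, induced minus floxed and null minus induced cells. Without floxed array 3, 2 of them rose between null and floxed cells (Top2a 0.46 and Ccna2 0.4) and none fell, where 13.1% of all genes rose and 11.7% fell.

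The nick is closed by Lig1 or by Lig3 with its scaffold Xrcc1. Lig1 had 5.99, 6.15 and 5.98 on the null arrays, 6.08, 5.92 and 5.84 on the induced arrays and 5.93, 5.97 and 5.85 on the floxed arrays. Lig3 had 0.59, 0.92 and 0.66 on the null arrays, 0.53, 0.34 and 0.41 on the induced arrays and 0.29, 0.29 and 0.6 on the floxed arrays, so that floxed array 3 overlapped the null arrays. Its null-minus-floxed difference was 0.33 (adjusted p = 0.181), with 0.27 for its other probe. Xrcc1 differed by 0.08 between null and floxed cells.

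**Figure D3:**
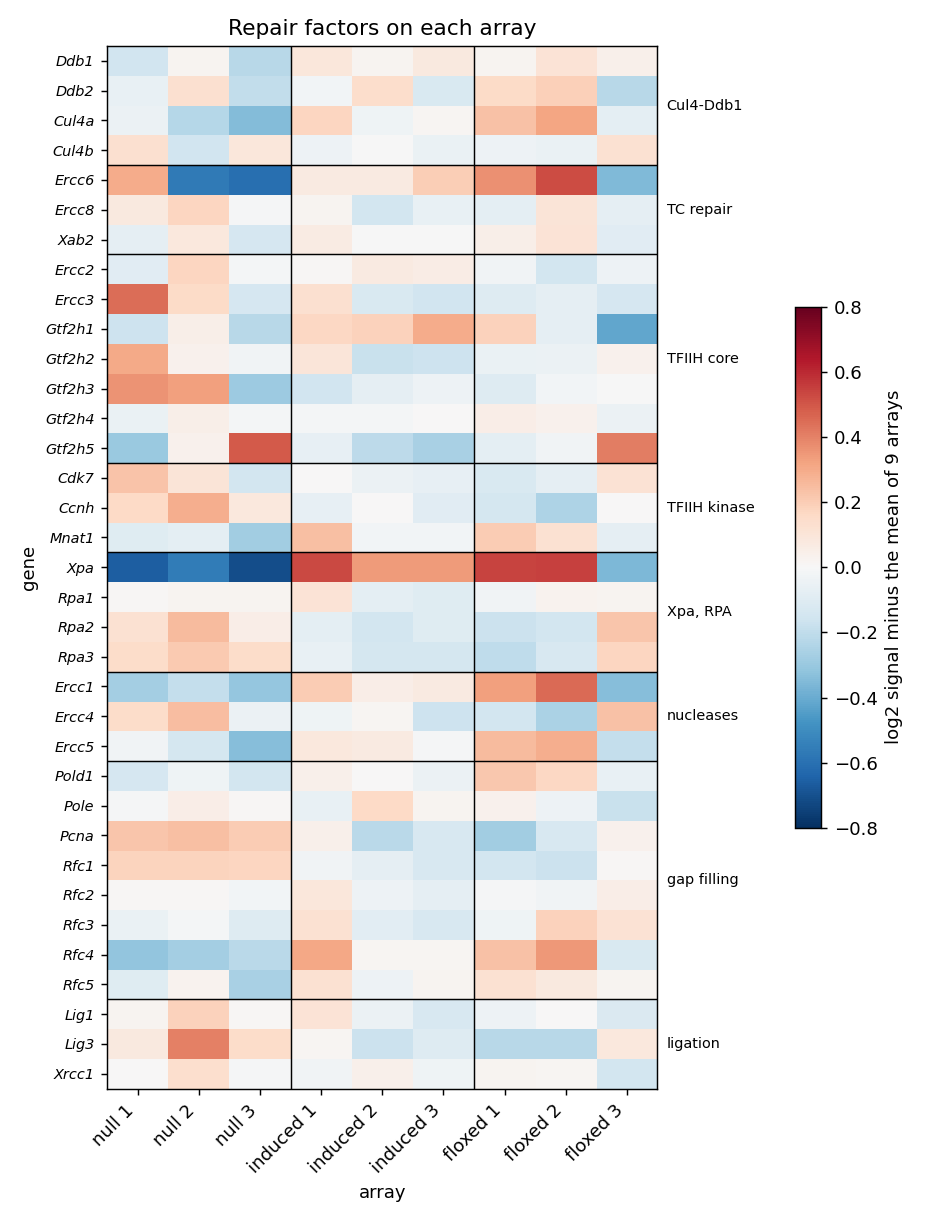
Deviation of each repair factor's log2 level from its own mean over 9 arrays (colour, red above and blue below), for null, induced and floxed arrays from left to right, with genes grouped by role. Apart from Xpa the induced columns are mostly pale, the Xpa row is blue in the null columns and on floxed array 3, and floxed array 3 differs from its neighbours in rows such as Ercc1, Gtf2h1 and Gtf2h5.

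Overlap between groups was then counted over all factors. Null and floxed arrays did not overlap for 8 of the 35, Ddb1, Mnat1, Xpa and Rfc4 being lower and Ccnh, Pcna, Rfc1 and Lig1 higher in null cells, against 23.4% of all genes, 11.4% lower and 12% higher. Null and induced arrays did not overlap for 13 of the 35. Cul4a, Gtf2h1, Mnat1, Xpa, Ercc1, Ercc5 and Rfc4 were lower and Ccnh, Rpa2, Rpa3, Pcna, Rfc1 and Lig3 higher in null cells, against 37.2% of all genes, 18.3% lower and 19% higher. In both cases the share of the factors lay near that of all genes. The median size of a difference, sign aside, was 0.171 for the factors and 0.186 for all genes between null and floxed cells, and 0.039 and 0.105 between induced and floxed cells. The factors' median SD was 0.11 in null, 0.083 in induced and 0.126 in floxed cells, against 0.145, 0.116 and 0.177 over all genes.

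More factors passed without floxed array 3 than under any other alternative in both comparisons with null cells. That array lay at least 0.5 below the mean of floxed arrays 1 and 2 for Xpa (-0.9), Ercc6 (-0.8) and Ercc1 (-0.73) and at least that far above it for none, against 10.1% and 12.3% of all genes. It was nearer to the null mean than to its own 2 fellow arrays for 24 of the 35, against 63.3% of all genes. The null arrays and floxed array 3 were all below the other 5 arrays for Cul4a, Mnat1, Xpa, Ercc1, Ercc5 and Rfc4 (11.9% of all genes). They were all above the other 5 for Ccnh, Rpa2, Rpa3, Rfc1 and Lig3 (12.8% of all genes).

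Without floxed array 3, 12 of the 35 factors passed between null and floxed cells, against 24.8% of all genes (11.7% lower and 13.1% higher). Those that fell were Xpa (-1.19), Ercc1 (-0.65), Rfc4 (-0.55), Cul4a (-0.48, brighter probe), Ercc5 (-0.43) and Pold1 (-0.29), with limma adjusted p between 0.000243 for Xpa and 0.0353 for Pold1. Those that rose were Lig3 (0.43), Pcna (0.42), Ccnh (0.37), Rpa3 (0.34), Rfc1 (0.33) and Rpa2 (0.3), with adjusted p between 0.0173 for Rfc1 and 0.042 for Rpa2. Between null and induced cells 6 passed, Xpa, Ercc1 and Rfc4 being lower and Rpa3, Pcna and Rfc1 higher, against 18.1% of all genes (9.66% lower and 8.47% higher). Between induced and floxed cells 0 passed and 0.728% of all genes did. Over all alternatives, the highest adjusted p of the 12 between null and floxed cells lay between 0.477 for Xpa and 0.974 for Rpa3. Leaving out this array also removes 1 of the 2 arrays on slide 2. The floxed arrays left were both on slide 1, which held no null or induced array. Group and slide then cannot be told apart in the comparisons with floxed cells. Within slide 2, null array 3 minus floxed array 3 was -0.26 for Cul4a, -0.14 for Ercc5, -0.09 for both Rfc4 and Pold1, 0.06 for Lig3, 0.17 for Pcna, 0.16 for Rfc1 and 0.08 for Ccnh, the same signs as above. It was 0.04 for Ercc1, -0.02 for Rpa3 and -0.17 for Rpa2, the opposite signs.

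**Figure D4:**
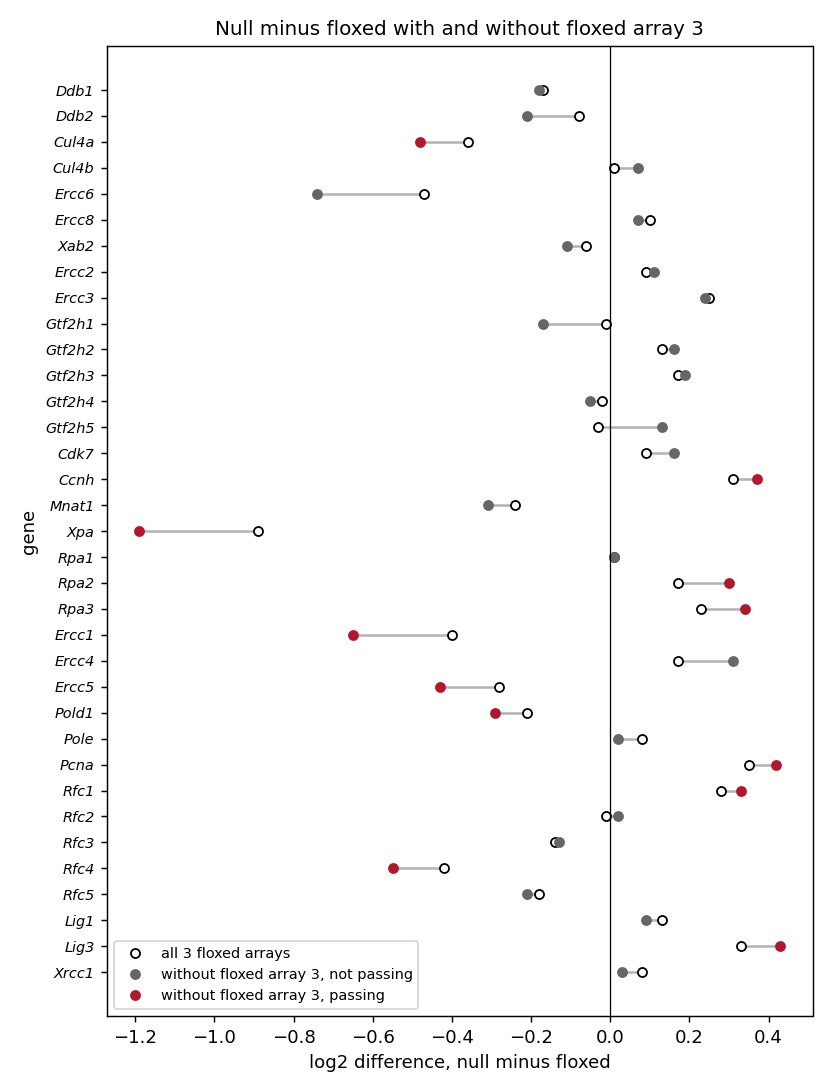
Null-minus-floxed log2 difference of each repair factor with all 3 floxed arrays (open circles) and without floxed array 3 (filled circles, red where the adjusted p was under 0.05 and grey where it was not). Red points lie on both sides of 0, 6 on each, and Xpa has the longest distance from 0, at -1.19.

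Slides 2 and 3 gave separate views of null cells that share no array. On slide 2, null array 3 minus floxed array 3 was over 0.5 in size for 0 of the 35, against 11.2% of all genes. On slide 3, null minus induced passed for Xpa and Gtf2h3. The sign was the same on both slides for 21 of the 35, against 55.4% of all genes. Across the 35 genes, which are not independent replicates, the slide values correlated with r = 0.3 and rho = 0.24, and with r = 0.13 once Xpa was left out, against r = 0.16 and rho = 0.14 over all genes. On slide 3, null minus induced was -0.34 for Ercc1, -0.41 for Rfc4, 0.33 for Pcna, 0.29 for Rpa3 and 0.26 for Rfc1, none of which passed there.

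**Figure D5:**
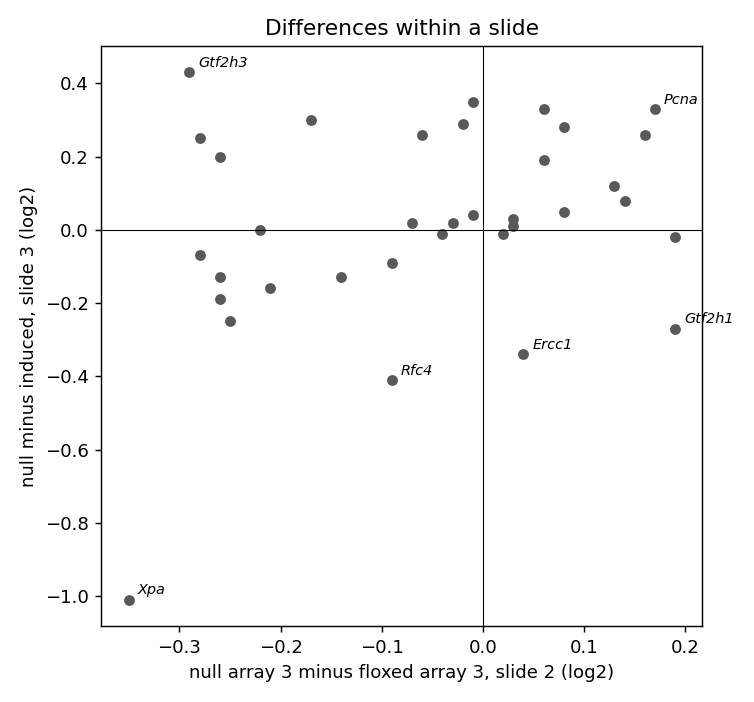
Null array 3 minus floxed array 3 on slide 2 (horizontal, log2) against null arrays 1 and 2 minus induced arrays on slide 3 (vertical, log2), with 1 point per repair factor. Xpa lies at the lower left, at -0.35 and -1.01, and Gtf2h3 at the upper left, at -0.29 and 0.43.

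Of 35 other genes of excision repair, among them Xpc, its partners Rad23b and Cetn2, and Rbx1 of the Cul4 ligase, Xpc was the only one that passed in any comparison. The median of these 35 was 0.026 for null minus floxed and 0.008 for induced minus floxed cells. Leaving out floxed array 3, 6 of them rose and 2 fell between null and floxed cells, where 13.1% of all genes rose and 11.7% fell.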

How the data were processed

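Labelled RNA (50 ng per sample) of 9 samples was hybridised to Agilent 1-colour arrays. The scanner files deposited by the authors give linear spot intensity. They come from Agilent Feature Extraction (version 10.7.3.1), per the submitters' processing notes and the file headers. The processed signal is that intensity after background subtraction and detrending, with no scaling between arrays. The deposited series matrix holds the mean signal of the same spots, an intensity with no centring, and its column medians lay between 94.5 and 140. Of its columns, 0 were unmapped.

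Control and outlier spots were left out, spots of a probe averaged, and log2 signal taken minus the array's 75th percentile. Of 55681 probes, 5 had only outlier spots on an array and 27536 were kept because every array of some group had them well above background. The brightest kept probe stood for each gene. Names came from RefSeq (GRCm38.p6) by accession for 27235 probes and from the files for 28446. Probe coordinates in the files refer to mm9.

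The 3 comparisons came from 1 fit in limma 3.58.1 under R 4.3.3 (lmFit, eBayes, two-sided), adjusted over all genes. The steps were tested on simulated data with independent noise and no slide effect, which does not give their error rates in these data. The number of arrays limits the precision. The genes, lists and tests were chosen with earlier results of these data known. Values per array are given for factors over 0.5 apart without overlap, for those where floxed array 3 lay 0.5 from its fellows, and for the brightest and dimmest of each role. Further factors with values per array were named after their values were seen.

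Alternatives were other background corrections, normalizations, probe filters and probe choices, slide and replicate number as blocks, and leaving out each array.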

Additional observations from a re-analysis of the deposited data

How the results depend on the processing

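Xpa kept a negative difference between null and floxed and between null and induced cells under all alternatives, as did Xpc. Ercc1 ranged from -0.65 to 0.04, Rpa3 from -0.02 to 0.34 and Rpa2 from -0.17 to 0.3 between null and floxed cells. Between induced and floxed cells none of the 35 factors passed under any alternative. The number of genes that passed in that comparison was 1, and 0 after quantile normalization, normexp correction, the series matrix values, no filter on dim probes, a filter on all 9 arrays or slide as a random block. It was 174 with slide as a fixed block and 0 to 145 when 1 array was left out. Between null and floxed cells it was 368, with 570 after normexp correction, 904 from the series matrix, 76 without the filter, 50 with slide as a block, 103 as a random block, 82 from only the 6 arrays compared and 79 to 4943 when 1 array was left out. Between null and induced cells it was 438, with 972 from the series matrix, 63 without the filter, 3249 with slide as a block, 1812 as a random block, 2780 from only the 6 arrays, 2465 within slide 3 and 61 to 3610 when 1 array was left out.

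Of the factors, 1 passed between null and floxed cells after normexp correction (Xpa), 2 from the series matrix (Xpa and Pcna) and 0 to 12 when 1 array was left out. Between null and induced cells, 1 passed after normexp correction, with the filter on all 9 arrays, with slide as a random block or with arrays centred on their median. There were 2 from the series matrix (Xpa and Pcna), from only the 6 arrays (Xpa and Ercc1) and within slide 3 (Gtf2h3 and Xpa). There were 4 with slide as a block (Gtf2h3, Xpa, Rpa3 and Ercc1) and 0 to 6 when 1 array was left out. The factors' median between null and induced cells was 0 to 0.047 when 1 array was left out. The null-minus-floxed difference of Xpc was -1.53 with slide as a block (limma adjusted p = 0.179), and its induced-minus-floxed difference was -1.51 to -1.3 when 1 array was left out. A null-minus-induced difference does not use the floxed arrays. Leaving out floxed array 3, or fitting only the 6 arrays compared, thus left the factors' median there at 0.007. In that comparison those settings changed only the spread estimate behind the tests. The cause of the other changes was not tested.

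Replicate numbers gave no sign of pairing. Arrays with the same number had deviations that correlated between -0.106 and 0.087, and those with different numbers between -0.119 and 0.097. With 3 arrays a group, on different slides, this cannot exclude a pairing. With the replicate block, 166 genes passed between null and floxed cells, 188 between null and induced cells and none of the 35 factors in any comparison.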
